A study of Mus musculus with 3 samples.

Results

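The interferon regulatory factor (IRF) genes are a family of transcription factor genes whose products share a DNA-binding domain that reads interferon-stimulated response elements. The 8 genes described here, Irf1, Irf2, Irf3, Irf4, Irf5, Irf7, Irf8 and Irf9, were taken by gene symbol from the annotation in the deposited tables, and they are 8 of 55536 annotated genes and of 22015 protein-coding nuclear genes.

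The libraries came from the Hoffmann laboratory and hold RNA of the cytosolic fraction of primary C57BL/6J mouse macrophages grown from bone marrow, which all had received lipid A, the part of bacterial lipopolysaccharide that Toll-like receptor 4 recognises, at 100 ng/ml for 25 min. Each of the 3 libraries, labelled biological replicates 1 to 3, started from 1 µg of RNA depleted of ribosomal RNA. There was no unstimulated sample, no other time and no nuclear fraction, so every value below is a level, a share or a difference between replicates of a single group, without a test, and 3 libraries cannot give an exact sign test a p below 0.25. All 3 libraries carry the same donor record, with age and sex not collected, and the labels do not say that the cells came from separate animals, so the spread given here may be partly technical.

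IRF proteins work in steps of the macrophage response to bacterial lipids. Toll-like receptor 4 signals through the adaptor MyD88, which reaches IRF5, and through the adaptor TRIF, whose kinases TBK1 and IKKε phosphorylate IRF3 and IRF7, which then switch on interferon beta. Secreted interferon in turn activates ISGF3, a complex of IRF9 with STAT proteins, while IRF1 and IRF2 compete for the same response elements and IRF8 acts with the lineage factor PU.1 in myeloid cells. IRF4 is best known from B cells, and from macrophages of the alternatively activated kind.

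The promoters of Irf1 and Irf7, the members that varied most between libraries, and of Irf8, the member that varied least, are shown from RefSeq (GRCm38.p6), each from 250 bases before to 50 bases after the annotated start on the strand of the gene, with capitals on every match to a searched motif on either strand. The Irf1 window lies at chr11:53769764-53770063, the Irf7 window at chr7:141266375-141266674 on the minus strand and the Irf8 window at chr8:120736108-120736407.
Irf1: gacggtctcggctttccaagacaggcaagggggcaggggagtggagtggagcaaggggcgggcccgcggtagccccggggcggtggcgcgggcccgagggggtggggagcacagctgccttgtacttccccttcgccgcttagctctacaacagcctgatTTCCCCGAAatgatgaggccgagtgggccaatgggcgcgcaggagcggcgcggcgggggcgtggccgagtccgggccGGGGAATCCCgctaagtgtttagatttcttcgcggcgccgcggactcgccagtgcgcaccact
Irf7: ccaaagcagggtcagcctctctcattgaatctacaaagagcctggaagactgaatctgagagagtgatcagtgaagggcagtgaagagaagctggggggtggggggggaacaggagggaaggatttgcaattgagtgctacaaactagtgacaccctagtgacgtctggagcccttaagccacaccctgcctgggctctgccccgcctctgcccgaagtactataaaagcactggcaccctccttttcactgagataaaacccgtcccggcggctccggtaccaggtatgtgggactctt
Irf8: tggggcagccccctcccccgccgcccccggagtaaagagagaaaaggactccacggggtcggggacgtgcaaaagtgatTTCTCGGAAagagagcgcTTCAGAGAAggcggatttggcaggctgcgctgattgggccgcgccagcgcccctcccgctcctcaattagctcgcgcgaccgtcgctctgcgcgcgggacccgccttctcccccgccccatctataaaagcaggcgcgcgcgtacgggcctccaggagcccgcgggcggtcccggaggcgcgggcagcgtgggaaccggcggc
The search used the κB motif bound by NF-κB, the STAT motif GAS (TTCNNNGAA), the interferon-stimulated response element ISRE (GAAANNGAAA) and the composite PU.1 and IRF element EICE (GGAANNGAAA). The Irf1 window held a GAS match 90 bases and a κB match, GGGGAATCCC, 13 bases before the start. The Irf8 window held 2 GAS matches, 171 and 153 bases before the start, and the Irf7 window held no match. The start used for the Irf7 window, 141266424, is not that of Irf7-201, the main Irf7 transcript, which starts at 141266481. The Irf2 window, not printed, held a κB match, a GAS match, an ISRE match and an EICE match, of which the ISRE and EICE matches overlapped, and the first windows of Irf3, Irf4, Irf5 and Irf9 held none. Of 32851 promoter windows of 27025 genes, 8.46% held κB, 8.30% GAS, 3.44% ISRE and 2.72% EICE, so a match is a description of these letters and not a binding site.

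Of the 8 IRF genes, 7 reached 1 TPM in every library, against 41.3% of all protein-coding nuclear genes and 17.2% of all annotated genes. Irf4 was the exception. TPM is the number of transcripts of a gene, estimated from its reads per unit of length and scaled to the same sum in every library, which allows levels of different genes to be set side by side within a library.

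Irf8, which directs the macrophage and dendritic cell lineages, stood at 51.8, 54.5 and 68.7 TPM in replicates 1, 2 and 3, a mean of 58.4 ± 9.06 TPM (SD, n = 3). It was the highest IRF gene in replicates 1 and 2 and the second highest in replicate 3. Irf5, a factor for inflammatory cytokine genes, stood at 31.8, 37.6 and 41.8 TPM (37.1 ± 5.06 TPM, SD, n = 3), with the lowest value in replicate 1. Irf4 stood at 0.530, 0.590 and 0.700 TPM from 250, 162 and 186 counts (0.607 ± 0.0862 TPM, SD, n = 3). Irf4 was thus below 1 TPM in all 3 libraries, yet far above the floor of 3 counts that would pass for absence. It was at the 54.9th percentile of protein-coding genes on average. With TPM rescaled to protein-coding nuclear genes alone, Irf4 stood at 2.34, 2.58 and 2.35 in replicates 1, 2 and 3. Its place below 1 TPM thus depends on the scale.

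Irf1, an early-response activator of interferon and antigen presentation genes, stood at 42.3, 41.1 and 120.5 TPM in replicates 1, 2 and 3 (68.0 ± 45.5 TPM, SD, n = 3). Replicate 3 stood apart from the others, which were close together. The authors' credibility intervals on the TPM of Irf1, which cover the assignment of reads within a library, ran from 40.9 to 43.2 in replicate 1, from 39.5 to 42.2 in replicate 2 and from 116.3 to 121.0 in replicate 3. Irf2, which binds the same elements as Irf1 and mostly represses them, stood at 16.7, 16.8 and 22.2 TPM (18.6 ± 3.15 TPM, SD, n = 3).

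Irf7, the amplifier of the type I interferon response, stood at 50.3, 32.5 and 63.2 TPM in replicates 1, 2 and 3 (48.6 ± 15.4 TPM, SD, n = 3), with replicate 2 the lowest. Irf3, the factor already present before interferon is made, stood at 11.8, 14.1 and 14.0 TPM (13.3 ± 1.28 TPM, SD, n = 3). Irf9, the DNA-binding subunit of ISGF3, stood at 13.2, 12.0 and 18.6 TPM (14.6 ± 3.49 TPM, SD, n = 3). Irf3 and Irf9 were close to each other, and their order turned between libraries.

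Ordered by mean TPM, the genes ran Irf1, Irf8, Irf7, Irf5, Irf2, Irf9, Irf3 and Irf4. Of the 7 neighbouring pairs in that order, 2 had ranges over the libraries that did not overlap, namely Irf5 over Irf2, with a ratio of means of 1.99, and Irf3 over Irf4, with a ratio of 21.9. The order within a library does not depend on the scaling between libraries. Irf1 was above Irf8 in 1 of 3 libraries, Irf7 above Irf5 in 2, Irf9 above Irf3 in 2, and the remaining pairs kept their order in all 3. Irf1 held 19.4, 19.7 and 34.4% of the summed IRF TPM in replicates 1, 2 and 3, and Irf8 held 23.7, 26.1 and 19.6%.

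**Figure D1:**
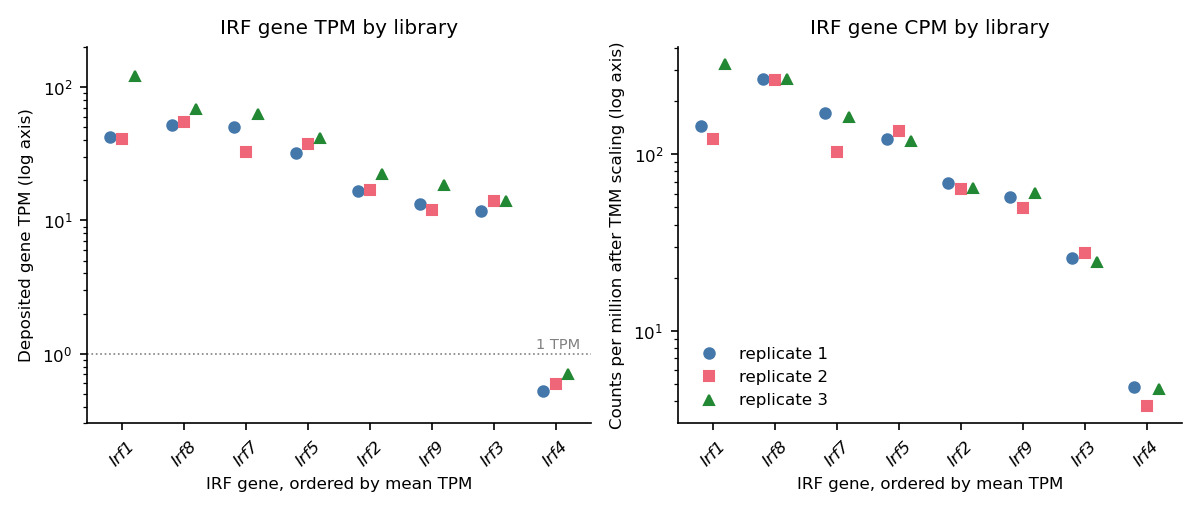
Level of each IRF gene in replicates 1 (circles), 2 (squares) and 3 (triangles) on log axes, as deposited gene TPM (left, dotted line at 1 TPM) and as CPM after TMM scaling (right, not corrected for gene length). Irf4 lies below 1 TPM in all 3 libraries, and Irf1 in replicate 3, at 120.5 TPM and 323.7 CPM, is the highest point of both panels.

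TPM between libraries also depends on how much of a library other RNAs hold. Protein-coding nuclear genes held 22.7, 22.9 and 29.8% of all TPM in replicates 1, 2 and 3, so these TPM values of replicate 3 are raised as a whole. In the alignment-free tables, described below, the same share was 10.7, 6.27 and 6.54%, highest in replicate 1. Between libraries, the genes are therefore compared as CPM, the counts of a gene over a common library total, after TMM scaling, a factor that sets the bulk of genes equal. On that scale Irf2, with its highest TPM in replicate 3, stood at 69.0, 63.5 and 64.5 CPM, and Irf8 at 268.2, 262.5 and 267.7 CPM. Irf1 stood at 143.9, 122.8 and 323.7 CPM and Irf7 at 171.7, 103.1 and 162.2 CPM. The totals on gene rows behind these values were 52956907, 43547422 and 38608503 counts in replicates 1, 2 and 3, at which 3 counts correspond to 0.0566, 0.0689 and 0.0777 CPM.

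The SD of log2 CPM over the 3 libraries had a median of 0.125 over the 8 IRF genes, against 0.127 over 12744 genes tested. Without replicate 2 these medians were 0.0579 and 0.0807, without replicate 1 they were 0.168 and 0.131, and without replicate 3 they were 0.129 and 0.111. The family median was thus above or below that of all genes depending on the libraries kept, and the SDs of single IRF genes lay far apart. Irf1 had an SD of 0.750, at the 96.8th percentile of all genes tested and the 99.7th among 858 genes within 0.5 log2 CPM of its level. Irf7 had an SD of 0.403, at the 87.8th percentile of all genes tested and the 96.9th among 1038 genes of like level. Irf8 had an SD of 0.0170, at the percentile 1.94 of all genes tested and 2.62 among 534 of like level. With library size alone as the scale, the SD of Irf8 was 0.0389. The other SDs were 0.196 for Irf4, 0.147 for Irf9, 0.102 for Irf5, 0.0907 for Irf3 and 0.0630 for Irf2.

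A single library carried each of the large values. Without replicate 3 the SD of Irf1 was 0.166, and without replicate 2 that of Irf7 was 0.0593. Irf1 was 2.25-fold higher in replicate 3 than in replicate 1 and 2.64-fold higher in replicate 3 than in replicate 2. Irf7 in replicate 2 was at 0.600 of its replicate 1 level, and in replicate 3 it was 1.57-fold higher than in replicate 2. No other IRF gene passed 1.5-fold in any pair of libraries.

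Against the background of all 12744 genes tested, 1 of 8 IRF genes (Irf1) was more than 1.5-fold higher in replicate 3 than in replicate 1, against 3.16% of all genes, and 2 of 8 (Irf1 and Irf7) were so in replicate 3 against replicate 2, where 4.49% of all genes were. For replicate 2 below replicate 1, 1 of 8 (Irf7) passed, against 1.92% of all genes. No IRF gene passed in the other 3 directions. Of all genes, 8.42% passed there for replicate 2 above replicate 1, 2.77% for replicate 3 below replicate 1 and 10.1% for replicate 3 below replicate 2. Past 2-fold, Irf1 was the 1 gene of 8 higher in replicate 3 than in either other library, where 0.808% of all genes passed against replicate 1 and 1.37% against replicate 2. In the remaining directions no IRF gene passed 2-fold, beside 3.83% of all genes for replicate 2 above and 0.275% below replicate 1, 0.541% for replicate 3 below replicate 1 and 4.87% for replicate 3 below replicate 2. With 8 genes, a single gene is 1 in 8 of the list, so these counts describe Irf1 and Irf7 and not the family.

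**Figure D2:**
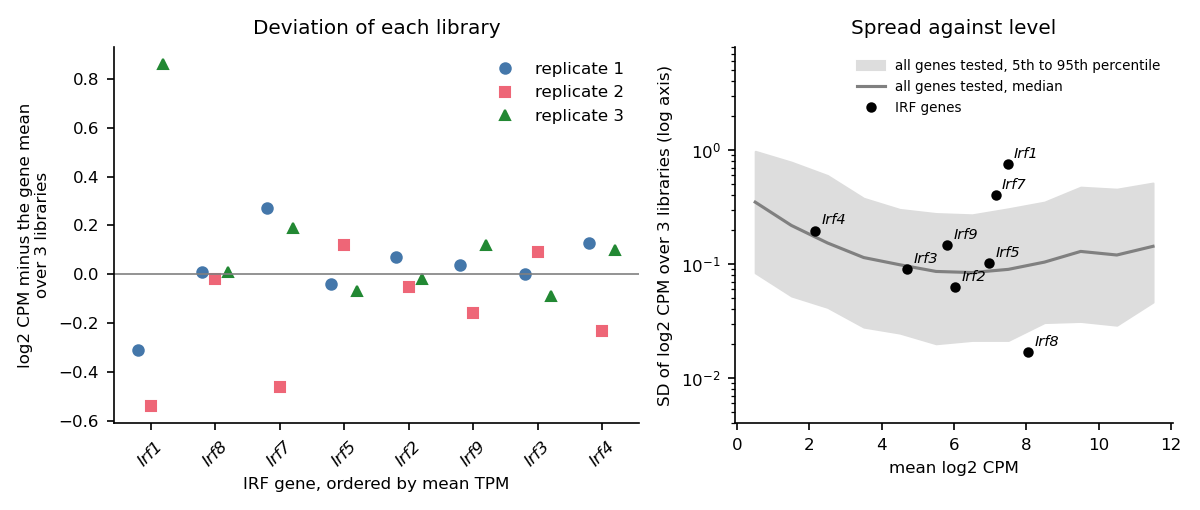
Left, log2 CPM of each IRF gene in each library minus the mean of that gene over the 3 libraries. Right, SD of log2 CPM against mean log2 CPM for the IRF genes (points) with the median (line) and the 5th to 95th percentile (band) of the 12744 genes tested, by level. Irf1 and Irf7 lie above the band and Irf8 below it.

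The direction of the deviations differed among the members. Irf1, Irf2, Irf4, Irf7, Irf8 and Irf9 were below their own mean in replicate 2, and Irf3 and Irf5 were above it. The median deviation of the 8 genes in replicate 2 was -0.11 log2 CPM, against a median of about 0 over all genes tested, of which 49.7% were above their own mean there. Noncoding RNAs known from the nucleus were instead higher in replicate 2. Malat1, a noncoding RNA of nuclear speckles, stood at 392.0, 1143.9 and 374.0 TPM in replicates 1, 2 and 3, and Neat1, the noncoding RNA of paraspeckles, at 32.4, 106.5 and 37.3 TPM. Of the 5 listed nuclear RNAs, 4 could be tested, and all 4 were highest in replicate 2, as were 39.4% of all genes tested. Meg3 was at 0 counts in all libraries. The part of nuclear RNA in the replicate 2 levels of the IRF genes was not tested.

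The leading transcript, the one with the largest share of the TPM of its gene, differed in weight from gene to gene. Irf8-201 held 98.1% ± 1.00 of Irf8 TPM (SD, n = 3), Irf5-201 held 90.7% ± 0.973, Irf2-201 held 84.3% ± 3.88 and Irf1-202 held 79.1% ± 9.97. At the other end, Irf9-205 held 53.9% ± 2.08, Irf4-201 held 53.0% ± 21.2, Irf7-201 held 51.5% ± 0.104 and Irf3-201 held 29.1% ± 4.13. These shares are those of the alignment-based transcript tables. In the alignment-free tables, made from the reads without a genome alignment, the same transcript led for 6 of 8 IRF genes, against 90.2% of 8682 protein-coding genes with 2 or more transcripts and a mean of 1 TPM or more. By the mean over 3 libraries, the exceptions were Irf3, led there by the retained-intron transcript Irf3-207, and Irf9, led there by Irf9-202. In replicate 3 alone, other transcripts led both genes there, Irf3-202 and Irf9-205.

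**Figure D3:**
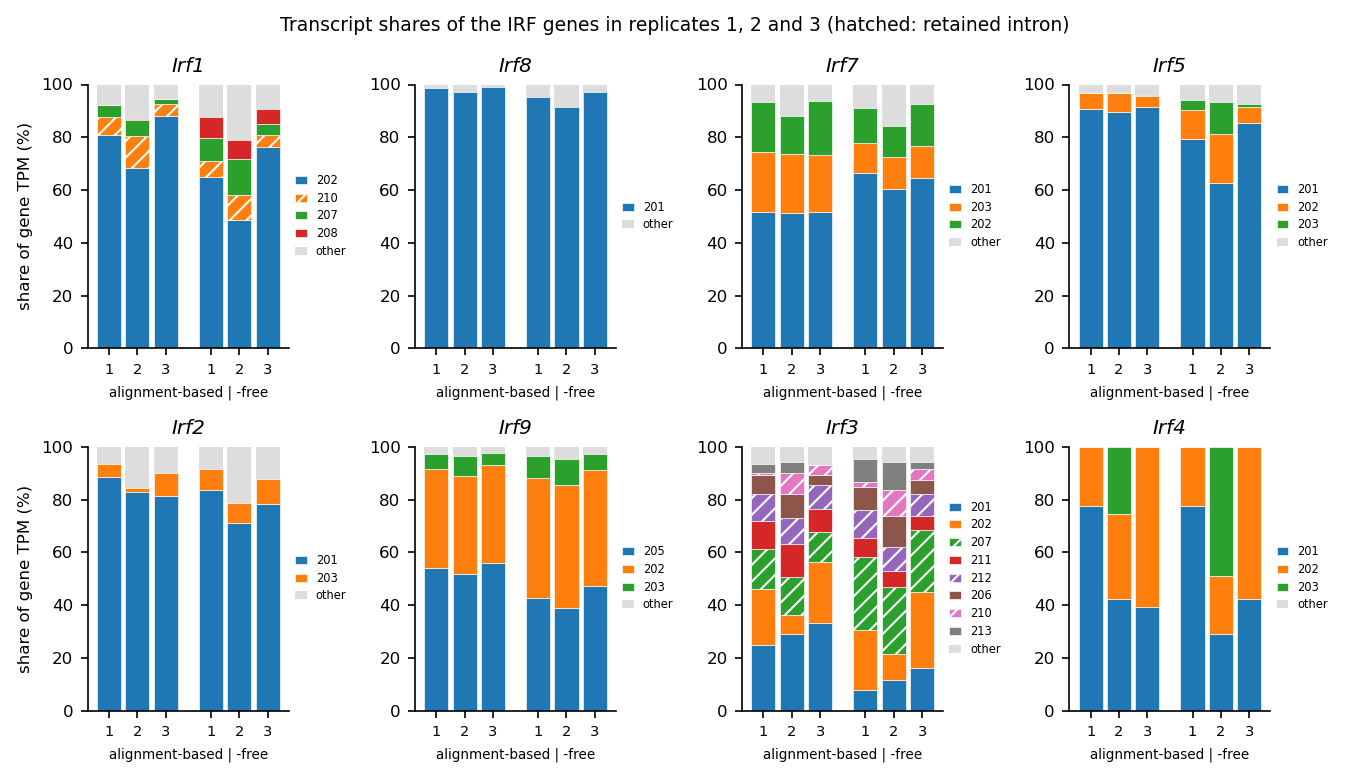
Share of the TPM of each IRF gene on its transcripts in replicates 1, 2 and 3, from the alignment-based tables (left 3 bars of each panel) and the alignment-free tables (right 3 bars). Transcripts with a mean share of 5% or more in either set are coloured, hatching marks retained-intron transcripts, and grey is the sum of the rest. Irf8 is nearly all Irf8-201, whereas Irf3 is spread over 8 coloured transcripts.

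Irf7 combined the second largest SD in level with a leading share that was very steady in the alignment-based tables. Irf7-201 held 51.5, 51.4 and 51.6% of Irf7 TPM in replicates 1, 2 and 3, while its own level was 87.3, 52.7 and 82.9 CPM. Irf7-203 held 22.9, 22.1 and 21.7%, and Irf7-202 held 19.0, 14.4 and 20.6%, lowest in replicate 2. The 3 transcripts code for different lengths of protein, with 457 codons in Irf7-201, 425 in Irf7-203 and 426 in Irf7-202. The coding bases of Irf7-201 that Irf7-203 or Irf7-202 lacks are printed 5′ to 3′ on the minus strand (GRCm38), wholly in capitals. Only the coding part of Irf7-203 is shorter. As a whole transcript it has 2237 bases, against 1916 in Irf7-201. Irf7-203 lacks the 96 coding bases at chr7:141264560-141264655, at the acceptor side of an exon, and Irf7-202 skips a whole 93-base coding exon at chr7:141264223-141264315.
Irf7 bases absent from Irf7-203: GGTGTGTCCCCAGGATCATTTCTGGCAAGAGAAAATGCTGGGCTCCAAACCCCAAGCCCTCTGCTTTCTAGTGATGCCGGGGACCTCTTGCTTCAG
Irf7 bases absent from Irf7-202: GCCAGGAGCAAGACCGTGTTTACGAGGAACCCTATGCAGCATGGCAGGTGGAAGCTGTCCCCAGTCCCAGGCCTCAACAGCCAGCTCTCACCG
Both lengths are multiples of a codon, 32 and 31 codons, so the reading frame on either side is kept. In the alignment-free tables Irf7-201 held 66.4, 60.5 and 64.7% in replicates 1, 2 and 3 (63.9% ± 3.03, SD, n = 3), lowest in replicate 2. The steadiness of its share thus depends on the quantification. There Irf7-202 held 13.7% ± 2.00 and Irf7-203 held 11.8% ± 0.152 (SD, n = 3), so the order of the minor transcripts depends on it as well.

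Irf9 was split between transcripts that start coding at different places. Irf9-205 held 54.0, 51.7 and 55.9% of Irf9 TPM in replicates 1, 2 and 3 and Irf9-202 held 37.6, 37.3 and 37.0%, with Irf9-203 at 5.69, 7.48 and 4.90%. In the alignment-free tables the order of the main pair was turned, with Irf9-202 at 45.4% ± 1.58 and Irf9-205 at 42.9% ± 4.33 (SD, n = 3). Without replicate 2, Irf9-205 led in both sets. The coding starts are shown as spliced bases on the plus strand of chromosome 14 (GRCm38), with the bases before the start codon of Irf9-202 in capitals.
Irf9-205: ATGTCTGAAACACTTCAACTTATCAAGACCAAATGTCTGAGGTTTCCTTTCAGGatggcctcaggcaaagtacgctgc
Irf9-202: atggcctcaggcaaagtacgctgc
Irf9-203: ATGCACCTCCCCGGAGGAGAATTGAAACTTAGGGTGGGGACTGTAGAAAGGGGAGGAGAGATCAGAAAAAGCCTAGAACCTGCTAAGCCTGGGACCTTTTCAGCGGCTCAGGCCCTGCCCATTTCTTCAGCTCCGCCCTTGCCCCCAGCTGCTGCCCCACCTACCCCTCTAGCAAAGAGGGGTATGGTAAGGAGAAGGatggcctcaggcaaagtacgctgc
As annotated, Irf9-205 adds 18 codons and Irf9-203 adds 66 codons before the start used by Irf9-202, for 417 and 465 codons against 399. Both quantifications place most Irf9 RNA on Irf9-205 and Irf9-202 together, and how much goes to each is not settled by these files.

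Irf4 showed the largest SD of a leading share, on few counts. Irf4-201 held 77.4, 42.4 and 39.1% of Irf4 TPM in replicates 1, 2 and 3, from 192.8, 90.9 and 73.0 expected counts, and Irf4-202 held 22.6, 32.2 and 60.9%. The 2 transcripts differ by 3 bases at an exon boundary, 1 codon, which stands in capitals here (plus strand, GRCm38, chr13:30753445-30753447).
Irf4-201: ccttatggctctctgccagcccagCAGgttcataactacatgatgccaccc
Irf4-202: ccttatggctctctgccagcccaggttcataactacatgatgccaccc
Only reads across this boundary tell the 2 forms apart. The short transcript Irf4-203 took 25.4% of Irf4 TPM in replicate 2 from 1.77 expected counts, and none in the other libraries, so a handful of reads on a short transcript can move these shares.

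Irf3 was the most divided gene, with 8 of its 13 transcripts at a mean share of 5% or more in either quantification. Irf3-201 held 24.9, 29.1 and 33.2% of Irf3 TPM in replicates 1, 2 and 3, and Irf3-202 held 21.3, 7.17 and 23.3%, lowest in replicate 2. Irf3-201 and Irf3-202 share all coding bases and have different 5′ ends and 3′ ends that lie 459 bases apart in the annotation, so they stand for the same protein of 419 codons. Among the transcripts not called coding, Irf3-207 held 15.0, 14.3 and 11.2% and Irf3-212, a single-exon fragment at the 5′ end, held 10.3, 9.80 and 9.06%. Irf3-212 lies wholly within the span of Bcl2l12, a gene on the opposite strand, whose part in that share was not tested. Irf3-207 keeps the intron at chr7:45000547-45000644 (GRCm38, plus strand), whose 98 bases are in capitals between 16 exon bases on each side.
Irf3-207: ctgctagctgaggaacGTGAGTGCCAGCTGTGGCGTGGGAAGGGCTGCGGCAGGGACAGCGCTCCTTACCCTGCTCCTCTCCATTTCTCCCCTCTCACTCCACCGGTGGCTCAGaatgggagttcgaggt
The intron is not a whole number of codons, so a message that keeps it does not continue in the reading frame of Irf3-201. In the alignment-free tables Irf3-207 held 27.7, 25.5 and 23.5% and Irf3-202 held 22.8, 9.89 and 28.8%, so that Irf3-207 led in replicates 1 and 2 and in the mean, and Irf3-202 in replicate 3. Without replicate 2, Irf3-202 led there in the mean as well. Of the other named transcripts, Irf3-206, Irf3-211, Irf3-210 and Irf3-213 had mean shares of 6.69, 10.7, 4.21 and 2.42%, against 8.69, 6.22, 5.26 and 7.35% in the alignment-free tables.

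For Irf1 the leading share moved with the level. Irf1-202 held 80.8, 68.4 and 88.1% of Irf1 TPM in replicates 1, 2 and 3, and the retained-intron transcript Irf1-210 held 6.83, 12.2 and 4.42%. As levels, Irf1-202 stood at 130.2, 100.3 and 304.4 CPM and Irf1-210 at 3.34, 5.46 and 4.74 CPM. The extra Irf1 RNA of replicate 3 thus lay on the spliced coding transcript, while the retained-intron transcript there was between the values of the other libraries. The other transcripts named for Irf1, Irf1-207 and Irf1-208, are incomplete coding fragments with mean shares of 4.21% and 0.0546%, against 8.95% and 6.83% in the alignment-free tables. For Irf5, the minor form Irf5-202, which has another first exon and the same 497 codons, held 5.79, 7.18 and 3.94%, and the fragment Irf5-203 held 0.187% on average, against 5.58% in the alignment-free tables. For Irf2, the fragment Irf2-203 held 4.79, 1.66 and 8.42% of Irf2 TPM from 11.4, 3.13 and 17.4 expected counts.

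Transcripts annotated as retained introns exist for 6 of the 8 genes, Irf1, Irf2, Irf3, Irf7, Irf8 and Irf9, and in all 6 their share was highest in replicate 2. Over all 5880 protein-coding genes with such a transcript and a mean of 1 TPM or more, 68.1% were highest in replicate 2, and the median share was 1.55, 3.51 and 1.38% in replicates 1, 2 and 3. Irf3 had 31.2, 37.9 and 26.0% of its TPM on retained-intron transcripts, far above the median gene in each library. Irf7 had 5.27, 9.77 and 4.94% and Irf2 had 0.958, 8.43 and 3.83%. Irf9 had 2.73, 3.49 and 2.26% and Irf8 had 1.14, 1.70 and 0.495%. The alignment-free tables also put the highest share of all 6 genes in replicate 2, as for 75.7% of all genes there. The nuclear RNAs Malat1 and Neat1 were highest in the same library, and their part in these shares was not tested. Irf4 and Irf5 have no transcript of that type.

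**Figure D4:**
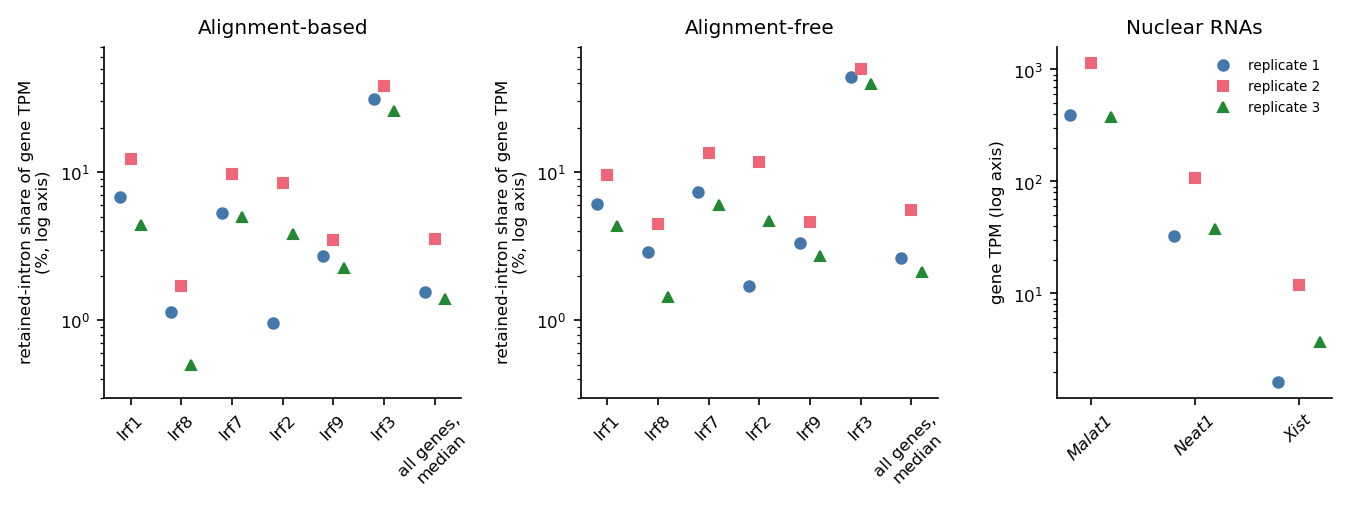
Percent of gene TPM on retained-intron transcripts (log axis) for 6 IRF genes and, at the right of each panel, the median over 5880 genes, from the alignment-based and the alignment-free tables, with gene TPM of the nuclear RNAs Malat1, Neat1 and Xist (log axis) in the third panel. The square of replicate 2 is the highest of its 3 points in every column.

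The level of a gene can also depend on the quantification. After both sets of tables were rescaled to protein-coding genes, Irf1 was 1.26-fold higher in the alignment-free tables, with log2 ratios of 0.31, 0.44 and 0.24 in replicates 1, 2 and 3, at the 93.6th percentile of 9342 genes. Irf2 was 1.17-fold higher there, with log2 ratios of 0.17, 0.32 and 0.18. Irf3, Irf7, Irf8 and Irf9 had mean log2 ratios between -0.06 and -0.01, Irf5 of 0.08 and Irf4 of 0.13, the last resting on 0.48 in replicate 2 against -0.04 in each of the others. The 5th and 95th percentiles over all genes were -0.16 and 0.37, so each of the 8 mean ratios lay within the central range. The difference of Irf1 between libraries was of the same size in the alignment-free counts, where replicate 3 was 2.22-fold higher than replicate 1 and 2.55-fold higher than replicate 2.

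The genes that act with the IRF proteins were nearly all present, against 41.3% of all protein-coding nuclear genes at 1 TPM or more in every library. All 10 listed kinases and adaptors upstream of IRF3 and IRF7 were at 1 TPM or more in every library, led by Ikbke at 16.2, 20.5 and 27.4 TPM, the gene of the kinase IKKε, and Tbk1 at 14.0, 14.6 and 20.8 TPM. All 8 genes of the MyD88 branch to IRF5 and IRF7 were detected, led by the kinase gene Lyn at 33.1, 33.5 and 50.5 TPM and Myd88 at 17.4, 17.2 and 27.2 TPM. All 9 interferon receptor, kinase and STAT genes were detected, among them the receptor gene Ifnar2 at 46.0, 47.1 and 60.3 TPM. All 3 IRF2-binding protein genes were detected, led by Irf2bp2 at 29.2, 30.0 and 42.2 TPM and Irf2bpl at 5.40, 7.63 and 5.83 TPM. These lists had median SDs of log2 CPM of 0.125, 0.0799, 0.0994 and 0.0880 in the order given, against 0.127 over all genes tested.

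Of 13 genes for proteins that bind DNA or chromatin with IRF factors, 11 were detected, against 41.3% of all protein-coding nuclear genes. The AP-1 genes Junb at 217.7, 235.2 and 326.9 TPM and Jun at 81.0, 101.3 and 158.1 TPM led, and Spi1, the gene of the IRF8 partner PU.1, stood at 59.7, 54.7 and 87.7 TPM. Its relative Spib, known from B cells and plasmacytoid dendritic cells, stood at 0.260, 0.390 and 0.180 TPM, and Ets1, a lymphoid factor, at 0.210, 0.390 and 0.290 TPM. Type I interferon genes were at the floor: Ifnb1, the interferon beta gene that IRF3 and IRF7 switch on, had 2, 2 and 3 counts in replicates 1, 2 and 3, and Ifna1, Ifna2, Ifna4, Ifna5 and Ifna13 had 0 counts in all libraries. A count of 0 allows up to 3 counts, so RNA of the 5 Ifna genes was not detectable above that level in the cytosolic fraction at this depth. That limit does not hold for Ifnb1, which had a few counts in every library.

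All 14 listed IRF target genes were detected, against 41.3% of all protein-coding nuclear genes, and they had a wide spread between libraries. Their median SD of log2 CPM was 0.411, against 0.127 over all genes tested, 13 of 14 were highest in replicate 3, where 34.0% of all genes tested were highest, and 11 of 14 were lowest in replicate 2, where 39.7% were lowest. These directions were not particular to the target genes. Replicate 3 was also highest for 8 of 10 kinases and adaptors, 8 of 9 interferon receptor, kinase and STAT genes and 9 of 13 DNA-binding partners. It was highest for 4 of 8 MyD88 branch genes and 1 of 3 IRF2-binding protein genes. Of the 10 kinases and adaptors, 8 were lowest in replicate 2. Ifit2, an antiviral RNA-binding protein gene, stood at 60.3, 42.3 and 112.5 TPM, and its relative Ifit3 at 58.5, 42.5 and 95.6 TPM. In CPM, Ifit2 was at 0.655 in replicate 2 and at 1.40 in replicate 3 of its replicate 1 level. Cxcl10, a chemokine gene named here after its values were seen, had the largest SD of the list, 1.19, and stood at 12.6, 7.06 and 46.3 TPM. Irf1 shared the replicate 3 maximum and the replicate 2 minimum with these genes, while Irf7 shared the replicate 2 minimum but stood slightly higher in replicate 1 than in replicate 3.

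**Figure D5:**
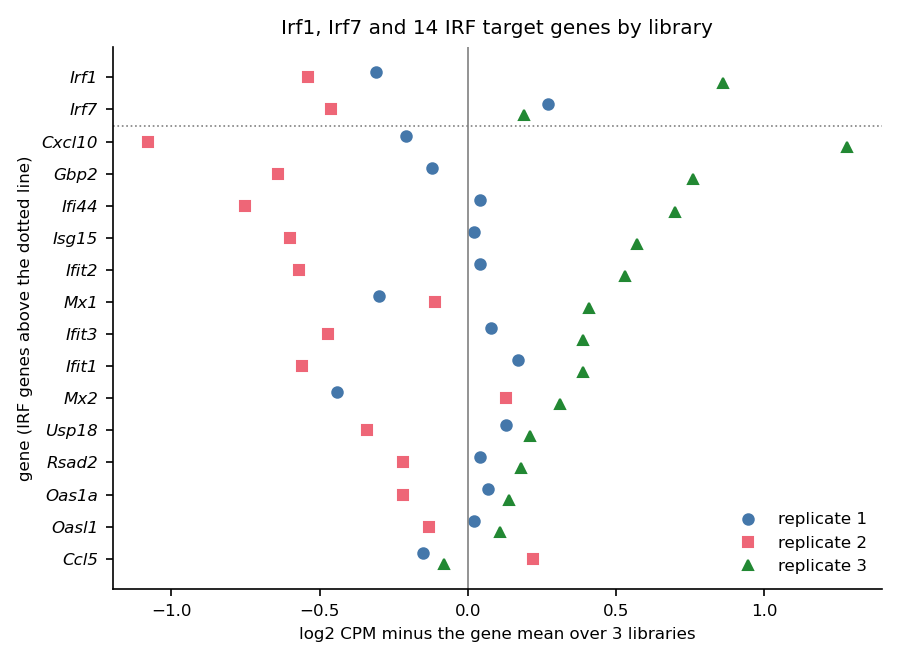
log2 CPM minus the mean of the gene over the 3 libraries, for Irf1 and Irf7 (above the dotted line) and the 14 listed IRF target genes, in replicates 1 (circles), 2 (squares) and 3 (triangles). Replicate 3 is the highest point for Irf1 and for all target genes but Ccl5, and replicate 2 the lowest for Irf1, Irf7 and 11 target genes.

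Likeness was measured as the Euclidean distance between centred log2 CPM values over the 3 libraries, among 57 related genes tested. Closest to Irf1 were Gbp2, an interferon-induced GTPase gene, at a distance of 0.241, and Ifi44, another interferon-induced gene, at 0.440; 41 and 145 of all genes tested were as close. Closest to Irf7 were Batf2, an AP-1 family gene, at 0.179 and Usp18, an interferon-induced protease gene, at 0.191, with 112 and 144 genes as close. Irf2 was nearest to Slc15a4 and Ticam1, with 5 and 13 genes as close, and Irf9 to Spi1 and Tank, with 69 and 89. For the other members, more of all genes tested were as close as the nearest related genes. Irf8 was nearest to Ifnar2 and Traf6, with 192 and 295 genes as close, and Irf4 to Oas1a and Stat2, with 282 and 645. Batf3 and Ikbkb were nearest both to Irf5, with 329 and 397 genes as close, and to Irf3, with 664 and 919. Among the IRF genes themselves, Irf3 and Irf5 were the closest pair, at 0.0527, and Irf1 and Irf3 the farthest, at 1.18. With 3 points per gene, these distances describe the libraries only.

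Cell type markers fitted the label of macrophages. All 10 macrophage markers were detected, against 41.3% of all protein-coding nuclear genes. Among them, Lyz2, the lysozyme gene, stood at 4140.8, 4025.3 and 6667.9 TPM and Cd68 at 681.9, 591.0 and 878.2 TPM. None of the 7 B cell and plasma cell markers reached 1 TPM in every library, nor did any of 7 conventional dendritic cell markers or 6 T and NK cell markers. Summed TPM in replicates 1, 2 and 3 was 1.29, 2.37 and 1.96 for B cell, 0.900, 1.61 and 1.41 for conventional dendritic cell and 0.0200, 0.0700 and 0.0400 for T and NK cell markers. The calls against 1 TPM were made on deposited TPM. Rescaled to protein-coding genes alone, the B cell sums were 5.69, 10.4 and 6.59. On that scale the conventional dendritic cell sums were 3.97, 7.04 and 4.74 and the T and NK cell sums 0.0882, 0.306 and 0.134. Of 6 plasmacytoid dendritic cell markers, Tcf4 alone was detected, with 6862, 5236 and 5435 counts, and Siglech, the more specific one, stood at 0.270, 0.630 and 0.300 TPM. S100a8 and S100a9 were the 2 of 6 neutrophil markers detected, with summed neutrophil TPM of 26.0, 43.7 and 30.1. In such bulk samples, fewer cells of a type and less RNA per cell cannot be told apart, and the part of other cells in the level of Irf4 or Irf8 was not tested.

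Several members share bases with other annotated genes, and the strand setting of the counting is not given in the sources used here. Gm20388 runs on the same strand across all of Irf8 and held 3417, 3126 and 2349 counts, against 13951, 11336 and 10584 for Irf8, so reads could be divided between them. Rnf31, on the same strand, overlaps the start of Irf9 by 123 bases. On opposite strands, Gm17334 lies inside Irf1 with 159, 299 and 204 counts, Bcl2l12 overlaps Irf3 by 1065 bases, Tnpo3 overlaps Irf5 by 1045 bases and Phrf1 overlaps Irf7 by 45 bases. Scaf1, on the opposite strand, ends 100 bases from the end of Irf3 without overlap. Within or beside Irf2, the 4 further loci Gm16675, Gm45479, Gm31172 and Gm45481 were each below 1 TPM in all libraries.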

How the data were processed

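Per the file headers and the labels, each of the 3 libraries has a gene table and a transcript table made from transcriptome alignments and a transcript table made from the reads directly, on mm10 with annotation M21. The authors deposited expected or estimated counts, not normalized, TPM scaled to a fixed sum per table, and, per transcript, the percent of gene TPM. The sources used here give neither tool versions nor the strand setting. Gene coordinates count from 1.

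Expected counts were rounded, filtered with filterByExpr, scaled with TMM factors (0.9829, 0.9927 and 1.025) and turned into log2 CPM with a prior count of 2 in edgeR 4.0.16 (R 4.3.3), a computation that was tested on simulated data. Rows that are no gene held 0.186, 0.167 and 0.0395% of counts and were left out. Detection means 1 TPM in every library. Floors of 3 counts cover counting error alone, as PCR copies cannot be told from molecules without identifiers.

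The text names all 8 members, their transcripts with a mean share of 5% or more in either quantification, the 2 highest genes and up to 2 genes below 1 TPM of each related list, neighbours within 1 kb and the 2 nearest genes by likeness; not every gene so chosen is printed. Members and lists were chosen with earlier results of these data known. No test between groups was possible. Alternatives were the alignment-free tables, TPM over protein-coding genes, other scaling (DESeq2 1.42.0 size factors, library size), filters, thresholds, and each replicate left out.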

Additional observations from a re-analysis of the deposited data

How the results depend on the processing

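No paired analysis was possible because the series holds a single group. The summed level of the 8 genes, 259.1 TPM on average, was 84.2 TPM in the alignment-free tables and 1017.8 TPM when only protein-coding genes set the scale, so TPM of the IRF genes has meaning only within 1 kind of table. The median SD of log2 CPM, 0.125, stayed between 0.124 and 0.130 under other scaling, filters, prior count and alignment-free counts, and ranged from 0.0579 to 0.168 with each replicate left out, lowest without replicate 2. The SD of Irf8, 0.0170, was less steady. It was 0.0389 with library size alone, 0.0511 with alignment-free counts and 0.00612 with a mean count of 100 or more. Irf8 had the smallest SD of the 8 genes except without replicate 1, where Irf2 had 0.0181 against 0.0221. The 4 calls past 1.5-fold between pairs of libraries were also 4 with DESeq2 size factors, with library size alone and with alignment-free counts, and 2 past 2-fold. The median log2 ratio of alignment-free to alignment-based level, 0.04 after rescaling, was -1.67 with TPM as deposited. The number of genes detected, 7, was 8 at 0.5 TPM and 7 at 5 TPM. Irf4 was above 1 TPM in every library when only protein-coding genes set the scale. Of the 7 neighbouring pairs in the order of levels, 5 kept their order without replicate 3, where Irf8 stood above Irf1 and Irf3 above Irf9. The same transcript led in both quantifications for 7 genes without replicate 2, against 6 with all libraries. For the levels and noncoding shares of single genes, 61 of the recomputed values moved by less than 1 SD and 21 by more. The 61 include 15 for each replicate left out. Those could not have passed 1 SD, because dropping 1 of 3 libraries always shifts a mean by less. The level of Irf1 was thus counted as unmoved without replicate 3, at 41.7 against 68.0 TPM. Of the 21, 20 were under alignment-free or rescaled TPM. The other was the level of Irf3 with protein-coding transcripts only, at 9.09 against 13.3 TPM. Low counts limit Irf4, and sharing of reads between transcripts limits Irf3 and Irf9.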

Other observations

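Irf1 and Irf9 have a second RefSeq promoter window each, and so does Irf8. Transcripts that start within 50 bases of the first Irf1 start held 82.5, 72.8 and 89.3% of Irf1 TPM in replicates 1, 2 and 3, and those at the second start held 8.49, 12.1 and 4.30%. For Irf8 the first start held 98.9, 98.6 and 99.6% and the second 0.0579, 0.220 and 0.116%. For Irf9, in contrast, transcripts at the first start held 37.6, 37.3 and 37.0% and those at the second 55.8, 53.1 and 57.4%. None of the second windows held a match to the 4 motifs searched.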
